A study of Mus musculus with 7 samples.

Results

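The unfolded protein response and the integrated stress response were followed through 10 genes, namely Eif2ak3, Ern1, Atf6, Ppp1r15a, Atf4, Ddit3, Trib3, Asns, Chac1 and Xbp1. They were chosen by symbol, as probe sets with no other gene symbol. Each of the 10 had 1 such probe set, and they are 10 of the 19938 genes measured in this way. The arrays held RNA of fluorescent cells sorted from the cerebral cortex of C57BL/6 mouse embryos. All embryos were electroporated on embryonic day 13 with constructs that carry green fluorescent protein, and the cells were taken 24 h later, on embryonic day 14. There were 4 control arrays, labelled wild type, and 3 arrays of Trnp1 knockdown, with 1 sample each. Arrays are named by the replicate number of their group. The labels name neither the control construct nor the knockdown sequence, give the sex as not determined, and do not say how many embryos a sample holds. The sort was by fluorescence and not by cell type, and which cell types carried a construct was not tested. In such bulk samples fewer cells of a type and less RNA per cell cannot be told apart. The comparison asks whether these stress genes differ in cortical cells 24 h after knockdown of Trnp1, a nuclear protein of cortical progenitors.

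In the unfolded protein response, 3 sensors in the membrane of the endoplasmic reticulum (ER) respond to misfolded protein. The kinase PERK, encoded by Eif2ak3, phosphorylates the translation factor eIF2, which lowers protein synthesis in general while translation of the transcription factor ATF4 goes up. Other eIF2 kinases feed into the same step, which is why it is called the integrated stress response. The endonuclease IRE1, encoded by Ern1, splices Xbp1 mRNA so that it encodes an active transcription factor, and ATF6 is cut in the Golgi to release its factor domain. In the embryonic cortex, signalling through PERK and ATF4 is known to decline as progenitors move from direct neurogenesis to neurogenesis through intermediate progenitors. Probe sets of whole genes measure neither phosphorylation nor splicing nor cleavage, so the levels here are those of total mRNA.

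The stress genes did not differ together between knockdown and control. On the log2 scale, Chac1 was higher by 0.72 in knockdown arrays (SE 0.41), Asns by 0.33 (SE 0.34), and Ddit3 was lower by 0.40 (SE 0.28), and none of these passed. By limma with Benjamini-Hochberg adjustment over all genes, 0 of the 10 had an adjusted p under 0.05, where 0 of all 19938 genes (0%) did. At an unadjusted p under 0.05 there were 0 of 10, against 5.81% of all genes (2.2% higher and 3.61% lower). The smallest adjusted p among the 10 was 0.825. Of the 10 genes 6 were higher and 4 lower in knockdown, against 49.8% and 50.2% of all genes, and in 0 of the 10 were the groups without overlap (5.67% of all genes). The median difference of the 10 was 0.16, and that of all genes was -0.001. This background varied with level. Among all genes with a mean level above 6, as 7 of the 10 had, 66.4% were lower (median -0.12). At a mean level of 4 to 6, 43.0% were lower (median 0.04).

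**Figure D1:**
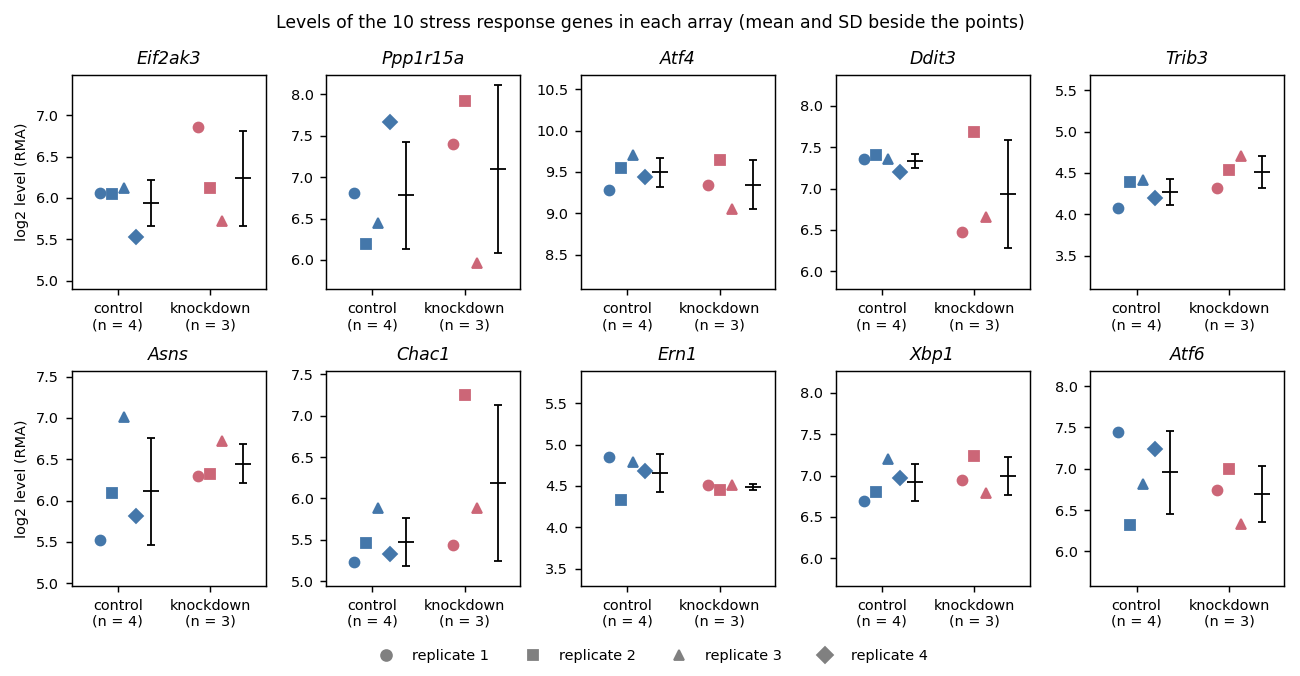
Log2 levels of the 10 genes in each array; blue points are the 4 control arrays, red points the 3 knockdown arrays, marker shapes give the replicate number, and the black bars are mean and SD. Every panel spans the same number of log2 units. The groups overlap for each gene, and knockdown array 2 stands highest for Chac1 (7.25), Ddit3 (7.68) and Ppp1r15a (7.92).

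The targeted gene and the markers of the sorted cells were checked first. Trnp1 (Entrez 69539) lay between 4.999 and 5.24 in the control arrays and between 4.55 and 4.85 in knockdown arrays, a difference of -0.40 (SE 0.12; exact two-sided permutation test over 35 splits, p = 0.0286, the smallest these splits can give). Its adjusted p by limma was 0.825, and its probe set was dim, with array medians between 4.398 and 4.611. Every knockdown array lay below every control for 613 of the 19938 genes. Cortical markers were present, since 10 of 10 radial glia, 7 of 7 intermediate progenitor and 9 of 10 neuronal markers lay above the array median in all 7 arrays. The same held for 0 of 5 oligodendrocyte lineage, 0 of 4 choroid plexus and 2 of 10 endothelial and mural markers. It held for 7 of 8 microglia and macrophage markers. The neuronal markers went in both directions, 4 higher and 6 lower in knockdown, with a list median of -0.23. Of them Neurod6 (-0.71, SE 0.13, adjusted p = 0.825 by limma), Neurod2 (-0.59, SE 0.16) and Dcx (-0.52, SE 0.19), all genes of young neurons, were lower in every knockdown array than in every control. Syt1, a gene of synaptic vesicles, was higher in every knockdown array (1.12, SE 0.31, and 0.72 without knockdown array 3). These 4 were named after their values were seen. The rest of the neuronal markers overlapped between the groups. Of them Stmn2 (0.33), Gap43 (0.16) and Map2 (0.11) had a higher mean in knockdown. Tubb3 (-0.50), Tbr1 (-0.39) and Bcl11b (-0.07) had a lower one. Some arrays stood apart in markers of other cells. All 10 endothelial and mural markers had a higher mean in knockdown, and their mean level over the list ranged from 4.30 to 6.55 in controls and from 5.06 to 7.14 in knockdown. That list stood 1.56 log2 units above the control mean in control array 4 and 2.14 above it in knockdown array 1. Microglial markers ranged from 6.30 to 9.06 in controls and from 7.07 to 8.40 in knockdown, highest in control array 4 and knockdown array 2. The list of interneuron markers stood 2.42 above the control mean in knockdown array 2. It stood 0.51 and 0.26 above it in knockdown arrays 1 and 3, against -0.20 to 0.16 in controls. All 6 interneuron markers had a higher mean in knockdown (median 1.21), though Gad1 differed by only 0.08 and Lhx6 by only 0.12. Choroid plexus markers stood 2.37 above it in control array 4 and 1.19 in knockdown array 2, there mainly through Ttr. Erythroid markers stood 0.82 above it in control array 4 and 1.05 and 0.84 in knockdown arrays 2 and 3, against -0.36 to -0.23 in the other controls and 0.088 in knockdown array 1, and 4 of 5 had a higher mean in knockdown (median 0.72). Their embryonic globin Hbb-y was bright in every array, at 10.51 to 11.92 in controls and 11.40 to 11.97 in knockdown. The part of neurons and of these other cells in the stress gene levels was not tested, beyond the values given with single arrays left out.

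The sensors came first. Eif2ak3 (Entrez 13666), the gene of PERK, measured 6.07, 6.05, 6.12 and 5.52 in control arrays 1 to 4. Its knockdown levels were 6.86, 6.12 and 5.72 in arrays 1 to 3. Knockdown array 1 was the highest of all arrays and control array 4 the lowest, and the other 5 lay between 5.72 and 6.12. Controls averaged 5.94 ± 0.279 (SD, n = 4) and knockdown arrays 6.24 ± 0.577 (SD, n = 3), a difference of 0.30 (SE 0.28, 95% interval -0.36 to 0.95, adjusted p = 0.865 by limma). The difference was gone without knockdown array 1 (-0.017), and it was 0.16 without control array 4 and 0.55 without knockdown array 3. It was 0.19 with the array medians set equal.

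Ern1 (Entrez 78943), the gene of IRE1, was a dim probe set near the array medians. The 4 controls measured 4.85, 4.34, 4.79 and 4.68. The knockdown arrays measured 4.51, 4.45 and 4.51 and so lay within 0.058 log2 units of each other, inside the range of the controls. The difference was -0.17 (SE 0.14, 95% interval -0.51 to 0.16, adjusted p = 0.846 by limma). Control array 2 was the only control below the knockdown arrays, and the difference was -0.28 without it and -0.11 without control array 1. It was -0.28 with equal array medians or after a further quantile normalization.

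Atf6 (Entrez 226641) encodes the sensor that is itself a transcription factor. In controls it ranged over 1.13 log2 units, with levels of 7.45, 6.32, 6.82 and 7.24. In knockdown it measured 6.75, 6.996 and 6.33, all inside that range. The difference of -0.27 (SE 0.29, 95% interval -0.95 to 0.42, adjusted p = 0.878 by limma) was smaller than the control SD of 0.499. It was -0.48 without control array 2, -0.42 without knockdown array 2, -0.17 without control array 4, -0.10 without control array 1 and -0.084 without knockdown array 3, and array weights gave -0.11.

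Xbp1 (Entrez 22433), the target of IRE1 splicing, showed the smallest difference of the 10. The controls measured 6.69, 6.81, 7.20 and 6.98, and the knockdown arrays 6.95, 7.24 and 6.79. The groups covered nearly the same range. Controls averaged 6.92 ± 0.221 (SD, n = 4) and knockdown arrays 6.99 ± 0.229 (SD, n = 3), a difference of 0.08 (SE 0.17, 95% interval -0.31 to 0.47, adjusted p = 0.938 by limma). The sign was not stable, with -0.030 at equal array medians, -0.048 without knockdown array 2 and 0 without control array 1. The other values that moved were 0.039 without control array 2, 0.17 without control array 3, 0.18 without knockdown array 3, and 0.13 and 0.16 after quantile and cyclic loess normalization. Spliced Xbp1 was not measured.

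Next came the core of the integrated stress response. Atf4 (Entrez 11911), whose protein is set mainly by translation, measured 9.29, 9.54, 9.71 and 9.44 in controls. The knockdown arrays gave 9.34, 9.65 and 9.05. Knockdown array 3 was below all controls, and the other 2 were among them. Controls averaged 9.49 ± 0.177 (SD, n = 4) and knockdown arrays 9.35 ± 0.300 (SD, n = 3), a difference of -0.15 (SE 0.17, 95% interval -0.55 to 0.25, adjusted p = 0.881 by limma). Without knockdown array 3 it was -0.00050. It was -0.30 without knockdown array 2 and -0.078 without control array 3. Scaling moved it as well, to -0.26 with equal array medians and to -0.019 and -0.021 after quantile and cyclic loess normalization.

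Ppp1r15a (Entrez 17872) encodes GADD34, which brings protein phosphatase 1 to eIF2 and so ends the block of translation. It varied most of the 10 genes within knockdown, over 1.96 log2 units. The controls measured 6.81, 6.19, 6.45 and 7.67, and the knockdown arrays 7.40, 7.92 and 5.96. High and low arrays occurred in both groups. Controls averaged 6.78 ± 0.644 (SD, n = 4) and knockdown arrays 7.10 ± 1.02 (SD, n = 3), a difference of 0.32 (SE 0.52, 95% interval -0.90 to 1.53, adjusted p = 0.915 by limma). Without knockdown array 2 the difference was -0.098, and without knockdown array 3 it was 0.88. Without control array 4, 2 or 3 it was 0.61, 0.12 or 0.20, and without knockdown array 1 it was 0.16. Array weights gave 0.58, and equal array medians 0.21. The mean of 13 immediate early genes, which cells switch on within minutes of a stimulus, was likewise highest in control array 4 and knockdown array 2 of their groups and lowest in control array 2 and knockdown array 3, but not in the same order throughout. Relative to the control mean it was -0.048, -0.51, -0.036 and 0.59 in control arrays 1 to 4 and 0.0050, 0.41 and -0.69 in knockdown arrays 1 to 3. For Ppp1r15a these values were 0.032, -0.59, -0.33 and 0.89, and 0.62, 1.14 and -0.82. The part of such a stimulus in Ppp1r15a was not tested.

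The targets of the pathway came last, and RefSeq promoters were read for them because ATF4 binds known elements. Of the 10 genes 9 had a promoter in the RefSeq table (build GRCm38.p6), from 250 bases before to 50 after the start. Both strands were searched for the C/EBP-ATF response element (CARE) written as TGATGNAA, the cAMP response element (CRE) TGACGTCA, the unfolded protein response element (UPRE) TGACGTGG, and the ER stress response element (ERSE), which is CCAAT and CCACG spaced by 9 bases. CARE letters stood in 3 of the 9, Trib3, Asns and Chac1, against 3.97% of all 32851 promoters. CRE letters stood in 1, Ppp1r15a, against 1.79% of promoters. UPRE letters stood in 0 of 9 (0.68% of promoters) and ERSE letters in 0 of 9 (0.12% of promoters). These matches describe letters in this window and show no binding. The 4 stretches are shown 5′ to 3′ on the strand of the gene, since they are the ones with matches, with the match in capitals.
Asns, chr6:7693210-7693252, minus strand: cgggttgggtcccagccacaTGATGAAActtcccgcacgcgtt
Chac1, chr2:119351029-119351076, plus strand: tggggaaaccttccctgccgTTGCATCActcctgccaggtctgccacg
Trib3, chr2:152344029-152344056, minus strand: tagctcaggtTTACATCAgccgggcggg
Ppp1r15a, chr7:45526269-45526300, minus strand: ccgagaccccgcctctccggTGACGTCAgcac
In Asns the CARE letters covered the bases from -23 to -16 before the start, in Chac1 from -193 to -186 on the opposite strand, and in Ppp1r15a the CRE letters from -12 to -5. In Trib3 they lay inside the transcript, at bases 15 to 22 from the start and on the opposite strand.

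Chac1 (Entrez 69065), an enzyme that degrades glutathione and a sensitive target of ATF4, showed the largest difference of the 10. It measured 5.24, 5.46, 5.88 and 5.32 in controls and 5.44, 7.25 and 5.88 in knockdown. Knockdown array 2 stood far above every other array, array 1 lay among the controls and array 3 level with the highest of them. Controls averaged 5.48 ± 0.287 (SD, n = 4) and knockdown arrays 6.19 ± 0.945 (SD, n = 3), a difference of 0.72 (SE 0.41, 95% interval -0.25 to 1.68) or 1.64-fold, with an adjusted p of 0.825 by limma. Without knockdown array 2 the difference was 0.19, and without knockdown array 1 it was 1.09 (adjusted p = 0.96 by limma). Knockdown array 2 stood high in interneuron (2.42), choroid plexus (1.19, mainly through Ttr), erythroid (1.05) and microglial (1.04) markers. Control array 4 also stood high in choroid plexus (2.37), microglial (1.70) and erythroid (0.82) markers. Relative to the control mean, Chac1 was at -0.15 in that array and the interneuron markers at -0.20. The part of these cells in Chac1 was not tested.

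Asns (Entrez 27053) encodes asparagine synthetase, which makes asparagine and is known to be induced through a CARE when amino acids are short. The 4 controls spanned 1.49 log2 units, at 5.52, 6.10, 7.02 and 5.82. The 3 knockdown arrays were closer together, at 6.30, 6.32 and 6.72. They lay above 3 controls and below control array 3. Controls averaged 6.11 ± 0.646 (SD, n = 4) and knockdown arrays 6.45 ± 0.236 (SD, n = 3), a difference of 0.33 (SE 0.34, 95% interval -0.46 to 1.13, adjusted p = 0.873 by limma). Without control array 3 the difference was 0.63 (adjusted p = 0.955 by limma) and all knockdown arrays lay above all controls left. It was 0.14 without control array 1, 0.20 without knockdown array 3 and 0.16 with array weights.

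Trib3 (Entrez 228775), a pseudokinase that is induced by ATF4 and restrains it, was likewise dim, with array medians between 4.398 and 4.611. Its levels were 4.08, 4.39, 4.42 and 4.20 in controls and 4.32, 4.53 and 4.70 in knockdown. Knockdown arrays 2 and 3 lay above all controls, and array 1 lay among them. The difference was 0.25 (SE 0.14, 95% interval -0.083 to 0.58, adjusted p = 0.825 by limma). It was 0.15 without knockdown array 3, 0.14 with equal array medians and 0.15 after a further quantile normalization.

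Ddit3 (Entrez 13198) encodes CHOP, a factor downstream of ATF4 that is tied to cell death under lasting stress. It was the steadiest of the 10 genes among controls, at 7.36, 7.41, 7.36 and 7.21. The knockdown arrays measured 6.48, 7.68 and 6.65. Knockdown arrays 1 and 3 were below all controls, whereas array 2 was above them. Controls averaged 7.33 ± 0.0874 (SD, n = 4) and knockdown arrays 6.94 ± 0.651 (SD, n = 3), a difference of -0.40 (SE 0.28, 95% interval -1.04 to 0.25, adjusted p = 0.829 by limma). Without knockdown array 2 the difference was -0.77 (unadjusted p = 0.000597 and adjusted p = 0.168 by limma), the smallest p of any of the 10 genes with a single array left out. With control array 4 left out too, it was -0.81 (adjusted p = 0.227 by limma). Without knockdown array 1 or 3 it was -0.17 or -0.25.

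**Figure D2:**
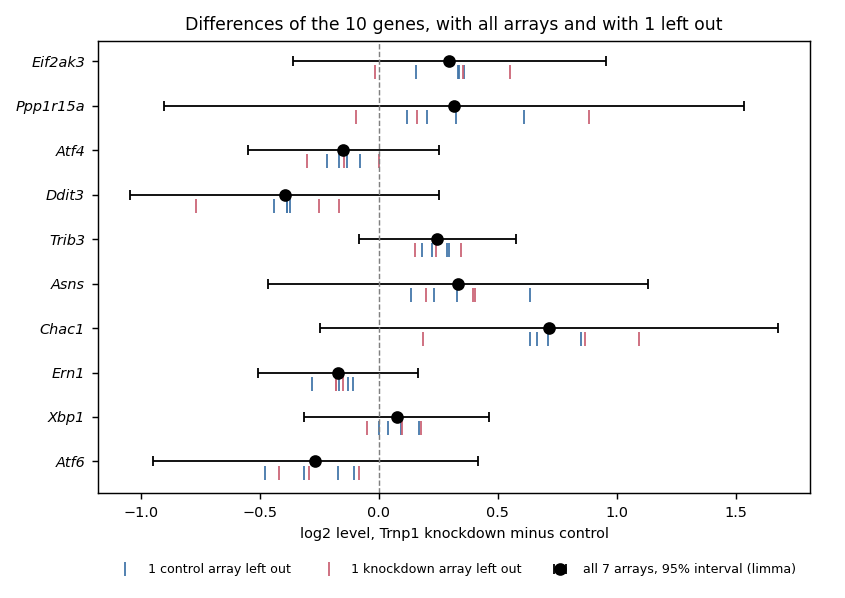
Difference in log2 level, knockdown minus control, for the 10 genes: black points with 95% intervals from limma over all 7 arrays, blue and red ticks the same difference with 1 control or 1 knockdown array left out. Each interval includes 0, and the ticks of Xbp1, Eif2ak3 and Ppp1r15a fall on both sides of it, whereas all ticks of Ddit3 are below 0 and all ticks of Chac1, Asns and Trib3 above it.

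For each of the 10 genes the range within at least 1 group was larger than the difference between the group means. In controls, array 3 was the highest for 6 of the 10 (Atf4, Xbp1, Trib3, Asns, Chac1 and Eif2ak3), and array 1 was the lowest for 5 of these 6 and for no other. In knockdown, array 2 was the highest for 6 (Atf4, Ddit3, Xbp1, Chac1, Atf6 and Ppp1r15a) and array 3 the lowest for 5 (Atf4, Xbp1, Atf6, Eif2ak3 and Ppp1r15a). As the mean of their standardised levels, the 10 genes stood at 0.76 in knockdown array 2 and at 0.52 in control array 3, and at -0.47 in knockdown array 3. Among the 45 pairs of genes, Pearson's r over the 7 arrays had a median of 0.14 and ran from -0.75 (Trib3 with Atf6) to 0.77 (Trib3 with Asns). It was 0.76 for Atf4 with Xbp1, 0.72 for Ern1 with Atf6 and 0.71 for Atf4 with Ddit3. For Atf4 with Chac1, Asns and Trib3 it was 0.40, 0.18 and -0.11. These correlations are a description over 7 arrays that share scaling and differences in cell makeup, and no test was made.

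**Figure D3:**
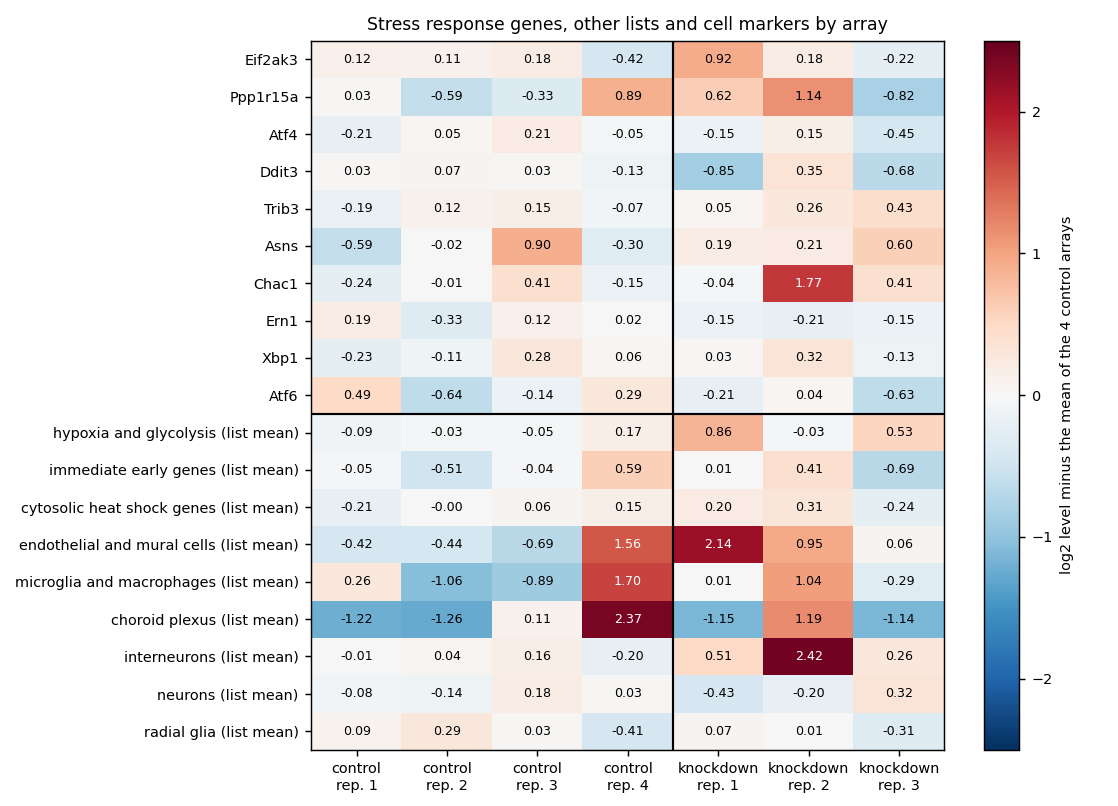
Log2 level minus the mean of the 4 control arrays in each array (columns), for the 10 genes (upper rows) and as means over lists of other stress and cell marker genes (lower rows). Chac1 is high in knockdown array 2 (1.77), as are the interneuron (2.42), choroid plexus (1.19, mainly Ttr) and microglial (1.04) markers. Knockdown array 1 and control array 4 are high for endothelial and mural markers (2.14 and 1.56).

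Around the 10 genes, 187 other genes of the pathways were read from 9 lists, and again 0 passed over all genes by limma. At an unadjusted p under 0.05, 4 were higher and 9 lower, which is 2.14% and 4.81% of them against 2.2% and 3.61% of all genes, and the counts of the single lists below are to be read against the same shares. Of the 187 genes 111 were lower (59.4%), with a median of -0.07. Bright genes in general were lower: among all 6979 genes with a mean level above 6, 66.4% were lower and the median was -0.12, and 140 of the 187 had such a level. Dimmer genes went the other way: at a mean level of 4 to 6, 43.0% of 5909 genes were lower and the median was 0.04. Counts of lower genes and medians of the single lists below are to be read against these values too, according to how bright a list is. A mean level above 6 was reached by only 7 of 16 genes of the ATF4 branch, 13 of 22 of amino acid supply and 4 of 11 cell death effectors.

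The eIF2 machinery had the lowest median of the 9 lists. It comprises the other eIF2 kinases, eIF2, its exchange factor eIF2B, which is blocked by phosphorylated eIF2, and the eIF2 phosphatases. Of 17 genes measured 14 were lower, with a median of -0.30 (-0.18 after cyclic loess normalization and -0.40 with equal array medians), 0 passed over all genes, and 1 was lower at an unadjusted p under 0.05. That gene, Ppp1cb, a catalytic subunit of protein phosphatase 1, measured 9.09, 9.18, 9.31 and 9.09 in controls and 8.77, 9.06 and 8.75 in knockdown (difference -0.31, SE 0.12, adjusted p = 0.825 by limma, and -0.19 and -0.18 after quantile and cyclic loess normalization). Of the eIF2B subunits, Eif2b4 differed by -0.47 (SE 0.21), Eif2b5 by -0.57 (SE 0.27) and Eif2b2 by -0.60 (SE 0.30). Eif2b3 and Eif2b1, named after their values were seen to complete the complex, differed by -0.17 (SE 0.19) and -0.03 (SE 0.34). Eif2b2 was lowest in knockdown array 1, at 5.34 against 6.15 or more elsewhere, and its difference was -0.23 without that array and -0.93 without knockdown array 2. Eif2b1 changed sign with single arrays left out, and Eif2b3 was -0.025 without knockdown array 3 and -0.090 without control array 3. The list median was -0.49 without knockdown array 2.

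The other 3 eIF2 kinases, named for their role and after their values were seen, did not pass. Eif2ak1, the kinase that senses haem and mitochondrial stress, differed by -0.28 (SE 0.15, and -0.18 without control array 2). Eif2ak4, the kinase GCN2 that senses uncharged tRNA, differed by 0.15 (SE 0.16, and 0.058 without control array 4). Eif2ak2, the double-stranded RNA kinase PKR, measured 4.96, 5.26, 8.15 and 5.82 in controls and 5.39, 5.77 and 5.11 in knockdown. Control array 3 alone was high, and the difference of -0.62 (SE 0.72) became 0.078 without it. Ppp1r15b, the constitutive partner of Ppp1r15a, differed by -0.30 (SE 0.21, and -0.12 or -0.54 without knockdown array 1 or 2).

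Genes of the ATF4 branch were mixed, with 10 of 16 higher and a median of 0.07 that turned to -0.040 with equal array medians and to -0.0058 without control array 3, and was 0.27 without control array 4. None passed over all genes, and 1 was higher at an unadjusted p under 0.05. Vldlr, a lipoprotein and reelin receptor, measured 4.23, 5.74, 5.68 and 5.55 in controls and 6.49, 5.80 and 6.82 in knockdown (difference 1.07, SE 0.42, adjusted p = 0.825 by limma). Nupr1, a small stress-induced nuclear protein, differed by 0.62 (SE 0.38), but by 0.094 without knockdown array 1. Jdp2, a repressor of the AP-1 family, differed by 0.35 (SE 0.21, and 0.12 without knockdown array 3), and Atf5, which is translated under the same control as Atf4, by -0.30 (SE 0.16, and -0.18 after cyclic loess normalization).

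The stress genes Atf3 and Ddit4 were also read, after their values were seen. Atf3, an early target of ATF4, measured 7.96, 6.37, 6.501 and 9.42 in controls and 8.21, 9.51 and 7.19 in knockdown, with control array 4 and knockdown array 2 the highest of their groups, as for Ppp1r15a (difference 0.74, SE 0.84, and 1.36 or 0.14 without control array 4 or knockdown array 2). Ddit4, an inhibitor of mTOR signalling that low oxygen also induces, lay between 7.65 and 7.99 in controls and measured 9.02, 6.86 and 8.79 in knockdown. Knockdown arrays 1 and 3 were above all controls and array 2 below them, and the difference of 0.34 (SE 0.49) was 1.02 without knockdown array 2, -0.061 without knockdown array 1 and 0.055 without knockdown array 3. The mean of 27 hypoxia and glycolysis genes stood at 0.86, -0.030 and 0.53 in the same 3 knockdown arrays and between -0.091 and 0.17 in controls. Of that list 22 genes were higher and 5 lower (median 0.34), and 0 passed over all genes by limma. At an unadjusted p under 0.05, 22.22% were higher and 3.7% lower, against 2.2% and 3.61% of all genes. Its smallest p belonged to Ndufa4l2 and then Egln3, named for that reason. Ndufa4l2 (1.97, SE 0.43, adjusted p = 0.825 by limma) did not overlap between the groups. Egln3 (1.29, SE 0.40, adjusted p = 0.825 by limma) did, with knockdown array 2 (5.55) below control array 2 (5.75). Eif2ak3 did not have the same order, at 0.92, 0.18 and -0.22 relative to the control mean in knockdown arrays 1 to 3. The part of low oxygen in Ddit4, Ero1a, Vldlr and Eif2ak3 was not tested.

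ATF4 targets of amino acid supply went both ways. Of 22 genes 13 were higher, with a median of 0.08 that turned to -0.030 with equal array medians and -0.0097 after a further quantile normalization, and it was -0.082 without knockdown array 3 and 0.16 without knockdown array 1. None passed over all genes, and at an unadjusted p under 0.05 there were 2 lower and 1 higher. Got1, an aspartate transaminase, measured 7.57, 7.28, 7.12 and 8.12 in controls and 5.84, 7.30 and 6.52 in knockdown (difference -0.97, SE 0.37, and -0.61 without knockdown array 1), and Psat1, of serine synthesis, differed by -0.57 (SE 0.23). Slc1a4, a transporter of neutral amino acids, differed by 0.75 (SE 0.30) and Slc7a1, one of cationic amino acids, by 0.72 (SE 0.39). Both were highest in knockdown array 1, without which they differed by 0.35 and 0.47.

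Cytosolic aminoacyl-tRNA synthetases, many of which ATF4 is known to induce, were lower in 13 of 18 (median -0.11, and -0.0033 after cyclic loess normalization, -0.0043 without knockdown array 1, -0.25 without knockdown array 2 and -0.20 without control array 1). All 18 had a mean level above 6, where 66.4% of all genes were lower (median -0.12). None of the 18 passed over all genes, and 0 did at an unadjusted p under 0.05. Iars differed by -0.38 (SE 0.17, and -0.049 as the mean over its probe sets), Hars by -0.57 (SE 0.29), Lars by -0.29 (SE 0.15) and Cars by 0.36 (SE 0.16). The list's mean stood at -0.34 in knockdown array 1 and at 0.10 and -0.12 in arrays 2 and 3, against -0.13 to 0.090 in controls.

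Chaperones and folding enzymes of the ER, the main targets of ATF6 and spliced Xbp1, had a median of -0.06 over 28 genes, with 17 lower, and the sign of the median turned after quantile (0.0044) or cyclic loess (0.047) normalization, without control array 4 (0.0087) and without knockdown array 3 (0.11). None passed over all genes and 1 was higher at an unadjusted p under 0.05. This gene, Ero1a, an ER oxidase that low oxygen also induces, measured 6.48, 7.10, 7.03 and 7.03 in controls and 7.59, 7.24 and 8.06 in knockdown. All knockdown arrays were above all controls (difference 0.72, SE 0.23, adjusted p = 0.825 by limma), with knockdown array 2 the lowest of the 3, as for Ddit4. Its paralogue Ero1b differed by 0.31 (SE 0.15, and 0.18 without knockdown array 1), Creld1 by 0.30 (SE 0.19) and Wfs1, whose loss causes Wolfram syndrome, by -0.25 (SE 0.14, and -0.11 without knockdown array 1).

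Classical reporters of ER stress, named after their values were seen, overlapped between the groups. Hspa5, the chaperone BiP, measured 9.65, 9.95, 10.01 and 10.09 in controls and 9.69, 10.45 and 9.11 in knockdown. Dnajb9, an IRE1-dependent cochaperone of BiP, measured 6.80, 7.86, 8.31 and 7.98 in controls and 6.80, 8.17 and 5.90 in knockdown. Herpud1, a membrane protein of ER-associated degradation, measured 6.96, 7.66, 7.76 and 8.003 in controls and 7.61, 8.66 and 6.89 in knockdown. Each was highest in knockdown array 2 among knockdown arrays and lowest in knockdown array 3. The differences were -0.18 (SE 0.30) for Hspa5, -0.78 (SE 0.56) for Dnajb9 and 0.13 (SE 0.43) for Herpud1. Without knockdown array 3 they were 0.14, -0.25 and 0.54, and without knockdown array 2 they were -0.53, -1.38 and -0.34.

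ER-associated degradation, which returns misfolded proteins to the cytosol, was lower in 16 of 25 genes (median -0.14, and -0.24 or -0.079 without knockdown array 2 or 1). None passed over all genes, and at an unadjusted p under 0.05 there were 2 lower genes beside Ero1a. Rnf5, a ubiquitin ligase of the ER membrane, differed by -0.53 (SE 0.20, and -0.35 without knockdown array 3) and Ube2g2, a ubiquitin-conjugating enzyme, by -0.43 (SE 0.18, and -0.28 without control array 3). Faf2, which recruits the segregase VCP, differed by -0.46 (SE 0.20), and by -0.22 without knockdown array 3.

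Genes of entry into the ER and exit from it were lower in 22 of 33 (median -0.12, but 0.016 after cyclic loess normalization, and -0.013 without knockdown array 3). Of the 33, 32 had a mean level above 6, where 66.4% of all genes were lower (median -0.12). None of the 33 passed over all genes, and at an unadjusted p under 0.05 there were 3 lower and 1 higher. The 3 lower genes, Srp68, Srp14 and Srp72, each encode a subunit of the signal recognition particle, which brings ribosomes to the ER. Srp68 measured 8.35, 8.19, 8.21 and 8.21 in controls and 7.66, 7.94 and 7.78 in knockdown, so that the groups did not overlap (difference -0.45, SE 0.11, adjusted p = 0.825 by limma). Srp14 measured 9.30, 9.44, 9.64 and 9.16 in controls and 8.73, 9.12 and 8.38 in knockdown, again without overlap (difference -0.64, SE 0.20, adjusted p = 0.825 by limma). Srp72 differed by -0.54 (SE 0.22, and -0.27 without knockdown array 3). Of the other subunits in the list, Srp9 and Srp19, named after their values were seen, overlapped between the groups. Srp9 differed by -0.46 (SE 0.27, and -0.23 or -0.83 without knockdown array 1 or 2) and Srp19 by 0.04 (SE 0.20, and -0.071 with equal array medians). Sar1b, a GTPase of vesicles leaving the ER, differed by 0.42 (SE 0.16).

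Partners of the ATF6 and IRE1 branches were lower in 11 of 19 (median -0.11, and -0.0053 without control array 4), and 0 passed over all genes. Nfyb, a subunit of the factor NF-Y that binds the CCAAT of the ERSE, measured 8.19, 8.59, 8.63 and 8.52 in controls and 8.06, 8.12 and 8.02 in knockdown (difference -0.41, SE 0.13, adjusted p = 0.825 by limma). It was the only gene of this list at an unadjusted p under 0.05, and the groups did not overlap. Creb3, a factor anchored in the ER membrane, differed by -0.22 (SE 0.12, and -0.11 after cyclic loess normalization), Gtf2i by -0.20 (SE 0.11, and -0.063 after quantile normalization) and Ern2, the epithelial form of IRE1, by 0.16 (SE 0.10, and 0.057 with equal array medians).

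Effectors of cell death under ER stress stayed near 0, with 7 of 11 higher, a median of 0.03 that turned to -0.075 with equal array medians and to -0.040 after quantile normalization, and 0 past an unadjusted p under 0.05. The 4 with the smallest p, Casp4 (0.28, SE 0.24), Dusp1 (-0.18, SE 0.36), Mcl1 (-0.09, SE 0.20) and Bcl2l11 (0.12, SE 0.30), each changed sign with a single array left out.

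**Figure D4:**
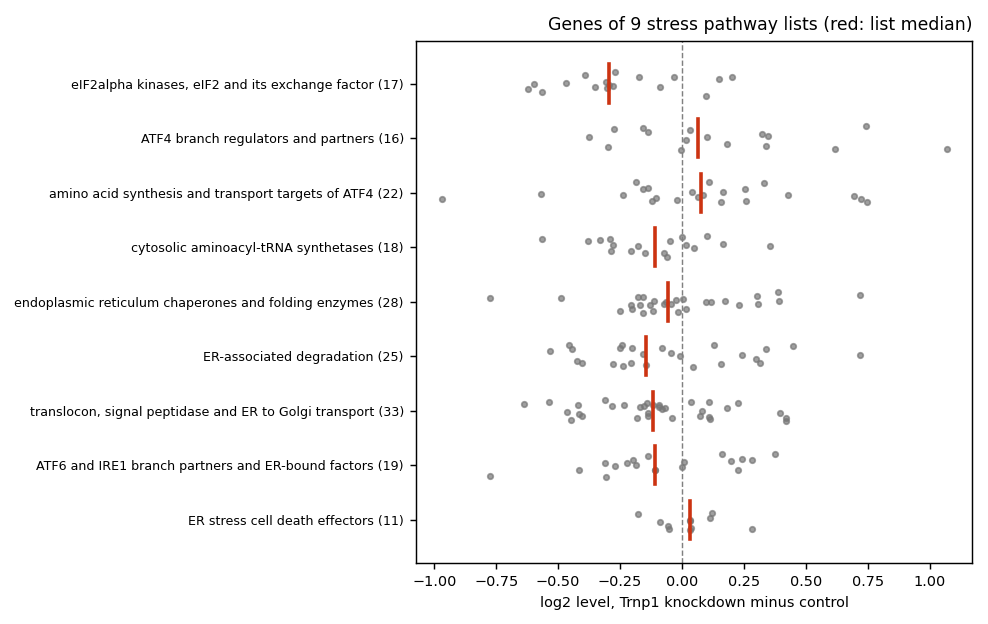
Difference in log2 level, knockdown minus control, for each gene of 9 lists of the stress pathways (grey points, number of genes in brackets), with the list median as a red line. The medians lie between -0.30 (eIF2 machinery) and 0.08 (amino acid supply), and Vldlr (1.07) and Got1 (-0.97) are the outermost points.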

How the data were processed

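Per the submitters' processing notes, Affymetrix Expression Console 1.2 made the deposited log2 values by RMA, which corrects background, equalises arrays by quantiles and summarises probes. Total RNA was amplified before labelling, per the labels' protocols. Genome build and scan batches are not given in the sources used here. The brightest probe set with 1 symbol stood for a gene (19938 genes of 35556 probe sets), under the RefSeq name of its Entrez identifier (GRCm38.p6; 21698 of 21789 such probe sets matched).

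One model over all genes and 7 arrays compared the groups (limma 3.58.1, R 4.3.3; lmFit and eBayes, two-sided, no covariates), with Benjamini-Hochberg adjustment and a threshold of 0.05. The code was tested on simulated data. P-values measure the spread between samples labelled biological replicates, and 7 arrays limit the precision. Lists are described by counts and medians, and the 4 genes with the smallest p in each of the 9 pathway lists are named, with exceptions stated. Members, lists and rules were chosen with earlier results of these data known. A list's mean in an array is its genes' mean log2 level minus the control mean. Alternatives were array weights, a prior that is robust or follows the intensity, 3 other scalings, filters on the dimmest 25% and 50%, the mean over probe sets, a replicate block, an adjusted p under 0.1, only the bases before the start for motifs, and each array left out. Leaving out control array 4 and knockdown array 2 together, the highest of their groups in microglial and choroid plexus markers, was chosen after seeing the data.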

Additional observations from a re-analysis of the deposited data

Results flagged for a closer look

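Of 88 named genes and list means checked over the 4 control arrays, 6 had a control array apart from the other 3, by the gap to its neighbour as a share of the control range, where chance gives about 1 in 20 groups. Eif2ak3 was 5.524 in control array 4 against 6.05 to 6.12 in the others, and Ddit4 was 7.654 in the same array against 7.94 to 7.99. Vldlr was 4.23 in control array 1 against 5.55 to 5.74, Ero1a 6.476 in that array against 7.03 to 7.10, and Srp68 8.349 in it against 8.19 to 8.21. Ern2 was 4.084 in control array 2 against 4.18 to 4.20. The 3 knockdown arrays were not checked in this way.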

How the results depend on the processing

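Each alternative, and the added one, left 0 of the 10 genes and 0 of all genes with an adjusted p under 0.05, and the main model left 0 of each at 0.1. At an unadjusted p under 0.05 the count of the 10 ran from 0 to 1 with an array left out (1 for Ern1, Asns, Chac1 and Ddit3 without control array 2, control array 3, knockdown array 1 and knockdown array 2), and was 1 without control array 4 and knockdown array 2 together. Over all genes 439 were higher and 719 lower at that p. The counts became 183 and 1507 with equal array medians, which moved the median of all genes from -0.001 to -0.107, then 182 and 477 without the dimmest 50%, and 901 and 1628 without those 2 arrays. With an array left out they ran from 301 to 882 and from 469 to 1522, both highest without knockdown array 2. The values of the 10 genes held their direction in 172 of the comparisons with an alternative, changed sign in 5 and came to 0 in 1. The 172 include alternatives that could not change these differences. They are the other priors, the filters on dim genes and the mean over probe sets, since each of the 10 had 1 probe set.

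Xbp1 was -0.030 with equal array medians and -0.029 without the 2 arrays, and ran from -0.048 to 0.18 with an array left out, through 0 without control array 1. The corresponding ranges were -0.017 to 0.55 for Eif2ak3, -0.098 to 0.88 for Ppp1r15a, -0.027 to 0.46 for Casp4, -0.48 to 0.21 for Dusp1, -0.24 to 0.15 for Mcl1, -0.073 to 0.33 for Bcl2l11, -0.53 to 0.14 for Hspa5, -0.34 to 0.54 for Herpud1, -0.061 to 1.02 for Ddit4, -0.49 to 0.20 for Eif2b1, -0.15 to 0.21 for Srp19 and -0.99 to 0.078 for Eif2ak2. Mcl1 was also 0.0014 with array weights, 0.027 after quantile and 0.042 after cyclic loess normalization, Herpud1 -0.21 without the 2 arrays Eif2b1 0.011 after cyclic loess, and Srp19 -0.071 with equal array medians, -0.067 with the replicate block and -0.25 without the 2 arrays. Among list medians, the eIF2 machinery ran from -0.49 to -0.21 with an array left out and was -0.53 without the 2. The ATF4 branch ran from -0.0058 to 0.27 and was 0.26 with array weights, and amino acid supply ran from -0.082 to 0.16 and was -0.030 with equal array medians and -0.0097 after quantile normalization. The cause was not tested.

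Groups shared the replicate numbers 1 to 3, but deviations of same-numbered arrays correlated at 0.028, -0.051 and 0.072, so the numbers were not taken to pair samples. With the replicate block, 0 genes passed, 644 were higher and 842 lower at an unadjusted p under 0.05, and the ATF4 branch median was 0.27, since the block gives control array 4 no partner and so leaves it out.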

Other observations

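The 5 genes of the whole table whose levels followed the mean standardised level of the 10 stress genes most closely over the 7 arrays were Cops9 (Pearson's r = 0.981), Ctnnd1 (0.963), Rwdd1 (0.948), Pate4 (0.947) and Ifi27l2a (0.942). They are the top of 19938 genes over only 7 arrays and are given as a description. Their differences between the groups ran from -0.13 to 0.09 log2 units. The widest range was that of Ifi27l2a, a gene induced by interferon, which measured 5.97, 4.62, 7.90 and 5.79 in controls and 5.15, 7.81 and 4.85 in knockdown. Control array 3 and knockdown array 2, its 2 highest arrays, were also the 2 with the highest mean of the stress genes. That match follows from the choice of Ifi27l2a by its correlation with this mean. Eif2ak2, likewise known as an interferon-induced gene, was high in control array 3 (8.15) but not in knockdown array 2 (5.77).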
